A study of Mus musculus with 12 samples.

Results

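The genes described here encode inhibins and activins (Inha, Inhba, Inhbb), anti-Mullerian hormone and its receptor (Amh, Amhr2), the activin-binding protein follistatin (Fst), and receptors for BMPs and activins (Bmpr2, Bmpr1b, Acvr2a). The 9 genes were taken by symbol, through the mouse annotation, from both FPKM tables of the series. They are 9 of 26382 genes present in both tables. FPKM is the number of fragments per kilobase of exon, scaled to the total number of fragments, so levels can be compared between genes.

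Mural granulosa cells (MGCs) line the wall of the preovulatory follicle, and cumulus cells surround the oocyte. Both were collected 2 h after hCG, an LH-like ovulatory signal, from female mice about 3 weeks old that had first received eCG, an FSH-like hormone. The paper purchased WT C57/BL6 mice. The libraries called WT here are labelled control, with no source or strain, so source and strain cannot be told apart from genotype. The libraries labelled knockout came from Sphk1-/-; Sphk2 fl/fl; Fshr-Cre (Sphk1/2gc-/-) mice, which lack sphingosine kinase 1 in all cells and carry a Cre that deletes Sphk2 in granulosa cells, so an effect of Sphk1 loss elsewhere in the animal cannot be told apart. There were 3 libraries in each of 4 groups (WT MGC, Sphk1/2gc-/- MGC, WT cumulus and Sphk1/2gc-/- cumulus). No label states whether libraries came from separate or pooled animals, so p-values measure only the spread between these libraries. In bulk samples, fewer cells of a type and less RNA per cell cannot be told apart.

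Inhibin is a dimer of the alpha subunit Inha with one of the beta subunits Inhba or Inhbb, whereas activins are dimers of the beta subunits alone. Granulosa cells secrete inhibin, which lowers pituitary FSH, and activin, which acts locally through type II receptors such as Acvr2a. Follistatin binds activin and blocks it. Growing follicles also make AMH, which signals through Amhr2. The oocyte's BMP15 and GDF9 signal through Bmpr2, BMP15 with type I receptors such as Bmpr1b.

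On GRCm38 (GENCODE M21), Inha (ENSMUSG00000032968) lies at chr1:75507077-75510366, Inhba (ENSMUSG00000041324) at chr13:16011851-16031621 and Inhbb (ENSMUSG00000037035) at chr1:119415465-119422248. Amh (ENSMUSG00000035262) lies at chr10:80805243-80807648 and Fst (ENSMUSG00000021765) at chr13:114452290-114458951. The receptor genes are Amhr2 (ENSMUSG00000023047, chr15:102445367-102454633), Bmpr2 (ENSMUSG00000067336, chr1:59763400-59879014), Bmpr1b (ENSMUSG00000052430, chr3:141837136-142169425) and Acvr2a (ENSMUSG00000052155, chr2:48814109-48903269). All 9 are protein-coding. Exons of Acvr2a share 446 bases with Orc4 on the other strand, and exons of Fst share 115 bases with the antisense gene Gm47040. Counting by strand was not stated, so reads from those stretches cannot be assigned to one gene.

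The 3 members that passed the genotype test in cumulus cells were Inhba, Inhbb and Bmpr1b. Their promoter windows are shown because these genes fell together. Each window is the 250 bases before the RefSeq start (GRCm38.p6), written on the gene's strand. All Bmpr1b windows lie inside the GENCODE M21 gene, so bases before its annotated start were not searched. Capitals mark matches, on either strand, to the cAMP response element TGACGTCA, the SF-1 (NR5A) site AGGTCA, the AP-1 site TGANTCA, the GC box GGGCGG, the GATA site AGATAA, the forkhead site TGTTTAC or the SMAD site GTCTAGAC.
Inhba (chr13:16011601-16011850, plus strand): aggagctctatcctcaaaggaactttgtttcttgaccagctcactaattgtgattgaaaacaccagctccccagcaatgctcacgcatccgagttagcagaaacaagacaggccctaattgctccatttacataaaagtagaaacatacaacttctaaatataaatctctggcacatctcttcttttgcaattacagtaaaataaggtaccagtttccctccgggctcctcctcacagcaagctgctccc
Inhbb (chr1:119422249-119422498, minus strand): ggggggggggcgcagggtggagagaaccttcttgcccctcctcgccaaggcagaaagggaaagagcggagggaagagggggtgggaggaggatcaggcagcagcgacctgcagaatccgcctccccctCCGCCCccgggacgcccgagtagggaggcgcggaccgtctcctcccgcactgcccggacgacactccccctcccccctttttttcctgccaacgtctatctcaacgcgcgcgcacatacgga
Bmpr1b (chr3:141982265-141982514, minus strand, 1 of 3 windows): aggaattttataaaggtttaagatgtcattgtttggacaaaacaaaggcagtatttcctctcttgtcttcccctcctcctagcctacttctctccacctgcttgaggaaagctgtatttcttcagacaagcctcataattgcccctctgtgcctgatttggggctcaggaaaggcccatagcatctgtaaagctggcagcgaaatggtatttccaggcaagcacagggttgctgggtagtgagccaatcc

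Inhbb held 1 match to the GC box, which 32.7% of the 32851 mouse windows of this length also held, and none of the searched motifs matched in the Inhba window or in the Bmpr1b window shown. Of the other Bmpr1b windows, which overlap each other, 1 held a match to AGGTCA. Of all windows, 14.0% held AGGTCA, 9.99% AGATAA, 6.75% TGANTCA, 3.17% TGTTTAC, 1.55% TGACGTCA and 0.167% GTCTAGAC. The Inhbb window was 68% G and C, against 43.2% for Inhba and 46.8% for Bmpr1b. A match is only a run of letters, and these windows show no sequence shared by the 3 genes among the motifs searched. Windows were found for 7 of the 9 members.

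Read totals inferred from the FPKM steps were 16100360 to 19761607 per library. Sphk1 was at 0.460 to 1.88 FPKM in WT and 0.104 to 0.557 FPKM in Sphk1/2gc-/- MGCs, and at 0.0699 to 0.0954 FPKM in WT and 0.0778 to 0.557 FPKM in Sphk1/2gc-/- cumulus cells. Sphk2 was at 5.18 to 5.86 and 4.51 to 6.29 FPKM in MGCs, and at 0.403 to 0.602 and 0.434 to 0.752 FPKM in cumulus cells. The targeted genes thus overlapped between genotypes in both cell types, and throughout Sphk1/2gc-/- names the label, which these levels do not check. The paper did report efficient SphK2 loss at the protein level, by immunofluorescence and western blotting of granulosa cells from eCG-primed mice. Mural markers were higher in MGCs than in cumulus cells of WT mice (4 of 4). Of 5 cumulus markers, Has2 was higher in cumulus cells, Slc38a3, Npr2 and Tnfaip6 were higher in MGCs, and Ptx3 did not pass. Oocyte markers were also higher in MGCs (6 of 8), with Gdf9 at 11.5 to 26.7 FPKM in WT MGCs and 0.329 to 1.26 FPKM in WT cumulus cells. For comparison, 52.5% of all genes tested were higher in WT MGCs and 24.1% lower. Sphk1/2gc-/- MGC library 3 stood apart, with correlations to the other MGC libraries of 0.912 to 0.939 (log2 values over 15279 genes). Each of the others reached at least 0.969 with some library. Cumulus libraries correlated with each other at 0.924 to 0.986 (12205 genes). WT cumulus library 3 had 27541 genes above 0 FPKM, against 18788 to 19289 in each other cumulus library. Leaving out this library alone kept the calls of Inhba, Inhbb and Bmpr1b in cumulus cells.

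**Figure D1:**
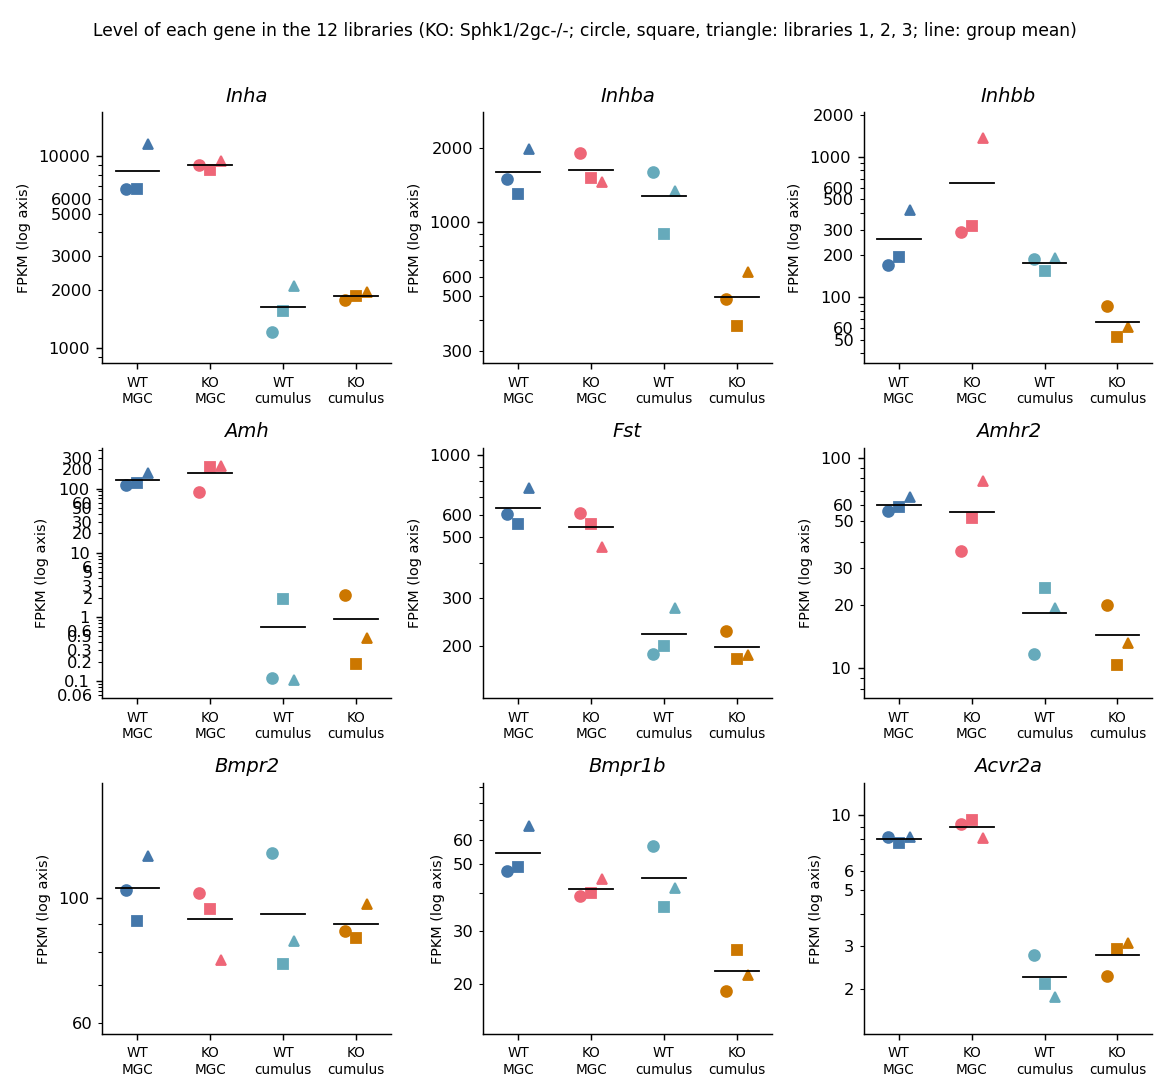
FPKM (log axis) of the 9 genes in each of the 12 libraries, by group. Symbols are libraries 1, 2 and 3, and the line is the group mean. Inhba, Inhbb and Bmpr1b were lower in all 3 Sphk1/2gc-/- cumulus libraries than in any WT cumulus library, and Inhbb in Sphk1/2gc-/- MGC library 3 reached 1351 FPKM.

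In cumulus cells, both activin beta subunit genes and Bmpr1b, a BMP type I receptor gene, were lower in Sphk1/2gc-/- than in WT mice. The differences were 1.98- to 2.67-fold. The alpha subunit gene, Fst, Amh and the other receptor genes among the 9 members did not pass the test. Thus 3 of 9 members passed (limma, adjusted p of 0.05 or less), all lower, where 12.7% of the 12205 genes tested were lower and 9.66% higher. The groups did not overlap for these 3 members, and did not overlap for 42.3% of all genes tested.

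Inhba, the beta A subunit of activin A and inhibin A, was at 1606, 898.5 and 1347 FPKM in the WT cumulus libraries against 488.8, 377.9 and 627.7 FPKM in those from Sphk1/2gc-/- mice. Every Sphk1/2gc-/- library lay below every WT library. The means were 1284 ± 358 and 498.1 ± 125 (SD, n = 3). On the log2(FPKM + 1) scale used for all differences, Inhba was lower by 2.56-fold, a log2 difference of -1.35 ± 0.26 (SE), with a 95% interval of -1.95 to -0.76 and an adjusted p of 0.00956 (limma). With no filter on low values the adjusted p of Inhba was 0.053.

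Inhbb, the beta B subunit, was at 186.6, 153.1 and 190.8 FPKM in WT cumulus cells, against 87.4, 52.1 and 61.1 FPKM in their Sphk1/2gc-/- counterparts. The groups were again separate, with means of 176.8 ± 20.7 and 66.8 ± 18.3 (SD, n = 3). Inhbb was 2.67-fold lower, a log2 difference of -1.42 ± 0.21 (SE), with an interval of -1.90 to -0.93 and an adjusted p of 0.00399. The beta A and beta B transcripts fell by similar amounts, and Inhba stayed the more abundant, at 5.87 to 8.61 times Inhbb in WT and 5.59 to 10.3 times in Sphk1/2gc-/- cumulus cells.

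Bmpr1b, which encodes the type I receptor ALK6, was at 57.6, 36.1 and 41.6 FPKM in WT cumulus cells, against 18.9, 25.9 and 21.3 FPKM in their Sphk1/2gc-/- counterparts. The lowest WT library was above the highest Sphk1/2gc-/- library. The log2 difference was -0.98 ± 0.21 (SE), a 1.98-fold lower level, with an interval of -1.46 to -0.51 and an adjusted p of 0.0135. Without Sphk1/2gc-/- cumulus library 3 the difference of Bmpr1b was -0.97 with an adjusted p of 0.053, and without both libraries numbered 2 it was -1.25 with an adjusted p of 0.0513. With no filter on low values Bmpr1b also missed the threshold (adjusted p 0.0513), and its change is below a fold of 2. Without both cumulus libraries numbered 3, a comparison of 2 with 2, the 3 members kept their direction with adjusted p of 0.056 (Inhba, -1.48), 0.0619 (Inhbb, -1.31) and 0.104 (Bmpr1b, -1.01).

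Inha, the alpha subunit, was at 1213, 1562 and 2114 FPKM in WT cumulus cells, against 1772, 1871 and 1966 FPKM in their Sphk1/2gc-/- counterparts. The Sphk1/2gc-/- values fell within the WT range. The log2 difference of Inha was 0.23, with an interval of -0.24 to 0.70 and an adjusted p of 0.437. A 2.56-fold fall like that of Inhba thus lay outside the interval of Inha.

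The ratio of beta to alpha subunit transcripts, (Inhba + Inhbb) / Inha, was 1.48, 0.673 and 0.727 in the WT cumulus libraries. In Sphk1/2gc-/- cumulus cells it was 0.325, 0.230 and 0.350, below all WT values. MGCs had low ratios in both genotypes, at 0.250, 0.223 and 0.207 in WT and 0.246, 0.218 and 0.30 in Sphk1/2gc-/- mice. These ratios restate the levels of the genes and carry no test. Inhba and Inha differ in GC content (41.4% and 59.7%), and the difference between cell types moved with GC content. Its part in the gap between the ratios of MGCs and cumulus cells was not tested.

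**Figure D2:**
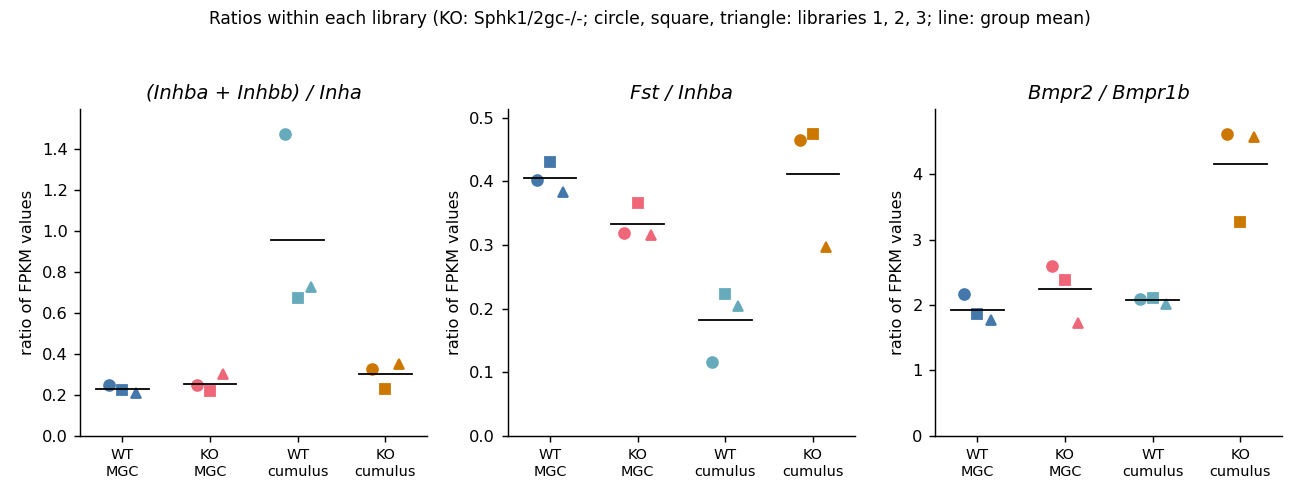
Ratios of FPKM values within each of the 12 libraries: beta to alpha subunits, Fst to Inhba, and Bmpr2 to Bmpr1b. Symbols are libraries 1, 2 and 3, and the line is the group mean. The beta to alpha ratio was at least 0.673 in the WT cumulus libraries and at most 0.350 in the other 9 libraries. The part of GC content in gaps between cell types was not tested.

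Fst, which binds and blocks activin, was at 187.0, 200.04 and 275.7 FPKM in WT cumulus cells, against 227.2, 179.6 and 185.8 FPKM in their Sphk1/2gc-/- counterparts. Its groups overlapped, with a log2 difference of -0.15 (interval -0.58 to 0.29, adjusted p 0.606). As Inhba was lower and Fst was not detectably so, the ratio of Fst to Inhba was 0.116 to 0.223 in WT and 0.296 to 0.475 in Sphk1/2gc-/- cumulus cells.

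The activin type II receptor gene Acvr2a was at 2.74, 2.10 and 1.87 FPKM in WT cumulus cells, against 2.27, 2.92 and 3.07 FPKM in their Sphk1/2gc-/- counterparts, with a log2 difference of 0.22 (interval -0.16 to 0.59, adjusted p 0.372). Bmpr2, the BMP type II receptor gene, was at 120.1, 76.3 and 83.8 against 87.4, 84.8 and 97.3 FPKM, with a log2 difference of -0.03 (interval -0.47 to 0.41, adjusted p 0.928). Both receptor genes overlapped between genotypes. The ratio of Bmpr2 to Bmpr1b was 2.01 to 2.11 in WT and 3.27 to 4.63 in Sphk1/2gc-/- cumulus cells. Of this pair, Bmpr1b was the one that was lower. Bmpr1a, another BMP type I receptor gene, was at 16.0, 10.5 and 10.3 against 9.43, 11.5 and 12.7 FPKM, with overlapping groups. Acvr1, also a type I receptor gene, was at 4.85, 4.16 and 5.06 against 5.94, 7.18 and 8.58 FPKM, higher in every Sphk1/2gc-/- library.

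Neither gene of the AMH pair passed. Amhr2, the AMH type II receptor gene, was at 11.6, 24.0 and 19.3 FPKM in WT cumulus cells, against 19.9, 10.3 and 13.2 FPKM in their Sphk1/2gc-/- counterparts, with a log2 difference of -0.31 (interval -1.0 to 0.38, adjusted p 0.483). Without both libraries numbered 1 the difference of Amhr2 was -0.83 and passed (adjusted p 0.027), and without both numbered 2 it was 0.11 (adjusted p 0.88). Amh was at 0.112, 1.90 and 0.102 FPKM in WT cumulus cells, against 2.16, 0.182 and 0.468 FPKM in their Sphk1/2gc-/- counterparts. These Amh values amount to 3, 57 and 3 reads in WT and 68, 6 and 15 reads in Sphk1/2gc-/- libraries, a wide spread within each group (log2 difference 0.21, interval -0.84 to 1.26, adjusted p 0.771).

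Other markers moved with the same comparison. Of 6 granulosa markers, 5 were lower in Sphk1/2gc-/- cumulus cells (Foxl2, Fshr, Cyp19a1, Nr5a2 and Hsd17b1), with summed levels of 1994 to 2209 FPKM in WT and 977 to 1164 FPKM in Sphk1/2gc-/- cumulus cells. Cyp19a1 encodes aromatase and Hsd17b1 the enzyme that makes estradiol from estrone. Of 5 cumulus markers, 3 were higher (Slc38a3, Ptx3 and Tnfaip6), with summed levels of 264.4 to 597 and 1022 to 1241 FPKM. Mural markers were lower in 2 of 3 tested, theca and stroma markers in 1 of 5, leukocyte markers in 1 of 4 and oocyte markers in 1 of 5. Among all genes tested 9.66% were higher and 12.7% lower. The 5 endothelial markers were below 0.5 FPKM in every cumulus library. The part of these shifts in the differences of Inhba, Inhbb and Bmpr1b was not tested.

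In MGCs, the 3 members that were lower in cumulus cells showed no common shift. None of the 9 members passed (limma), and none had an unadjusted p of 0.05 or less, where 1406 of 15279 genes tested did. Few genes passed at all, 0.00654% of 15279 tested being higher and 0.0327% lower, which is 6 genes. Same-numbered MGC libraries deviated weakly alike (correlations of 0.158 to 0.224), although no label states that they are paired. With the replicate number as a block, 3 genes and again no member passed. Groups did not overlap for 1 member, Bmpr1b, and for 16.9% of all genes tested. With array weights, whose estimation stopped before it converged, the counts were 7464 genes and 4 members. Without Sphk1/2gc-/- MGC library 3 the count was 278 genes, and without both libraries numbered 3 it was 2486.

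Inhbb had the widest spread, at 170.5, 192.9 and 416.3 FPKM in WT MGCs, against 293.2, 323.7 and 1351 FPKM in their Sphk1/2gc-/- counterparts. The groups overlapped, and the highest value came from Sphk1/2gc-/- MGC library 3. Each Sphk1/2gc-/- library had more Inhbb than the WT library of the same number, but no label pairs them. The log2 difference was 1.07 with an interval of -0.43 to 2.58 and an adjusted p of 0.665, or 0.244 with the replicate block. Without that library it was 0.36 with an adjusted p of 0.628. Without both libraries numbered 3 it was 0.76 with an adjusted p of 0.0137, a comparison of 2 libraries with 2.

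Inhba was at 1507, 1298 and 1980 FPKM in WT MGCs, against 1912, 1518 and 1460 FPKM in their Sphk1/2gc-/- counterparts, overlapping ranges with a log2 difference of 0.04 (interval -0.50 to 0.59, adjusted p 0.969). Inha, with the highest level of the 9 genes, was at 6719, 6699 and 11595 against 8977, 8439 and 9381 FPKM, with a log2 difference of 0.15 (interval -0.61 to 0.91, adjusted p 0.93). WT MGC library 3 was the highest WT library for all 9 members.

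Bmpr1b was at 47.5, 49.0 and 67.1 FPKM in WT MGCs, against 39.1, 40.1 and 44.7 FPKM in their Sphk1/2gc-/- counterparts. All Sphk1/2gc-/- values were below all WT values, but the log2 difference of -0.38 (interval -0.76 to 0.01) had an adjusted p of 0.551. Without both libraries numbered 3 it was -0.28 with an adjusted p of 0.0375.

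Fst was at 605.5, 557.8 and 757.7 against 611.0, 555.4 and 459.9 FPKM in MGCs (log2 difference -0.24, interval -0.68 to 0.21, adjusted p 0.752). Bmpr2 was at 103.2, 90.9 and 118.5 against 101.8, 95.6 and 77.4 FPKM (log2 difference -0.19, interval -0.57 to 0.20, adjusted p 0.766). Acvr2a was at 8.17, 7.77 and 8.22 against 9.20, 9.55 and 8.08 FPKM (log2 difference 0.13, interval -0.17 to 0.44, adjusted p 0.8). For each of these 3 genes the genotypes overlapped.

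Amh was plainly present in MGCs, at 113.1, 119.9 and 173.7 FPKM in WT mice, against 87.3, 219.7 and 225.5 FPKM in their Sphk1/2gc-/- counterparts, with a log2 difference of 0.29 (interval -0.63 to 1.21, adjusted p 0.867). Its receptor gene Amhr2 was at 56.1, 58.7 and 65.1 against 36.0, 51.8 and 77.8 FPKM, with a log2 difference of -0.18 (interval -0.81 to 0.45, adjusted p 0.882). Sphk1/2gc-/- MGC library 1 was the lowest and library 3 the highest for both genes within their group.

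Of the marker lists, none had a gene that passed in MGCs. Leukocyte markers summed to 161.1 to 306.4 FPKM in WT and 20.4 to 107.0 FPKM in Sphk1/2gc-/- MGCs. In means of WT and Sphk1/2gc-/- MGCs, S100a9 (113.8 and 13.8), S100a8 (44.8 and 7.44) and Lyz2 (68.6 and 35.3) were lower. The other leukocyte markers were not: Ptprc (0.873 and 0.976), Cd68 (6.87 and 7.31), Adgre1 (1.71 and 3.37) and Csf1r (2.34 and 2.93). Mural markers summed to 599.1 to 1224 and 396.2 to 522.8 FPKM, with Nppc alone higher on average (55.5 and 66.5). Sphk1/2gc-/- MGC library 3 had the lowest sum of cumulus markers, 264.4 FPKM, against 906.9 FPKM or more in the other MGC libraries. The part of these levels in the MGC results was not tested.

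**Figure D3:**
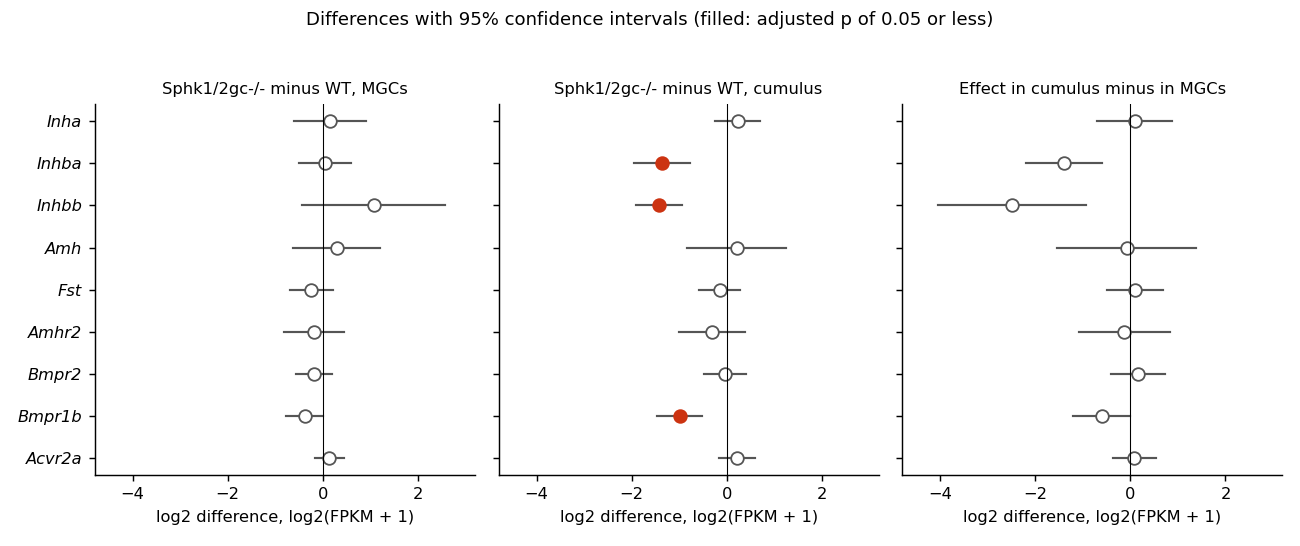
Log2 differences of the 9 genes with 95% confidence intervals: Sphk1/2gc-/- minus WT in MGCs, the same in cumulus cells, and the cumulus effect minus the MGC effect. Filled points have an adjusted p of 0.05 or less, which held for Inhba, Inhbb and Bmpr1b in cumulus cells and for no member in the other panels.

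Whether the effect of genotype differed between cumulus cells and MGCs was tested in one model of the 12 libraries. No member passed after adjustment (limma). The unadjusted p was 0.05 or less for 3 of 9 members (Inhba, Inhbb and Bmpr1b) and for 3508 of 15869 genes tested. After adjustment, 2.45% of these genes had a higher effect in cumulus cells and 1.48% a lower one. The higher calls were 62.3% of all calls, and 76.7% after rescaling to TPM. Inhba had an effect lower by 1.40 in cumulus cells (log2 difference -1.40 ± 0.37 SE, interval -2.20 to -0.60, adjusted p 0.0571). Inhbb had -2.49 ± 0.72 (interval -4.05 to -0.93, adjusted p 0.0734), and Bmpr1b had -0.61 ± 0.28 (interval -1.21 to -0.01, adjusted p 0.223).

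These calls of the difference between cell types depended on MGC libraries. Without Sphk1/2gc-/- MGC library 3, the difference was -1.47 for Inhba (adjusted p 0.0495) and -1.78 for Inhbb (adjusted p 0.0463). Without WT MGC library 3, it was -1.56 for Inhba (adjusted p 0.0331) and -2.89 for Inhbb (adjusted p 0.0381), and without Sphk1/2gc-/- MGC library 1 it was -2.88 for Inhbb (adjusted p 0.0476). With the replicate block, which joins libraries of the same number across cell types, Inhba passed (-1.40, adjusted p 0.0426). No label links these numbers, and same-numbered cumulus libraries did not deviate alike (correlations of -0.148 to 0.115). The other 6 members had differences between -0.13 and 0.16 with adjusted p of 0.777 to 0.958. The comparison of cumulus cells with MGCs rests on separate tables, so cell type and table cannot be told apart.

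The 9 genes together made up 2.93% to 4.93% of the summed FPKM of an MGC library and 0.668% to 1.07% of that of a cumulus library. The members' levels also differed between the cell types. In WT mice, Inha, Fst, Amh, Amhr2 and Acvr2a were higher in MGCs than in cumulus cells, although Amhr2 was at -0.12 after GC centring, and Inhba, Inhbb, Bmpr2 and Bmpr1b did not pass. These 5 of 9 compare with 52.5% of the 15869 genes higher in MGCs and 24.1% lower. Groups did not overlap for the same 5 members, and for 82.1% of all genes. In Sphk1/2gc-/- mice, 8 of 9 members were higher in MGCs, with 51.3% of all genes higher and 22.0% lower. Their groups did not overlap, as for 73.9% of all genes. Bmpr2 was the member that did not pass. The median of all genes was 0.54 higher in MGCs in WT and 0.51 in Sphk1/2gc-/- mice on the log2 scale, so a share of higher members near the background is no result about them.

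The split of all calls itself depended on scaling. In WT mice 68.6% of calls were higher in MGCs, but 37.3% after each library was centred on its median, which moved the median of all genes from 0.54 to -0.26, and 74.6% in TPM, which moved it to 1.05. In Sphk1/2gc-/- mice the share was 70.0%, and 34.6% after median centring. Relative to the median of all genes, WT MGCs had Inha 1.80, Fst 1.00, Amh 5.92, Amhr2 1.17 and Acvr2a 0.95 log2 units higher. On the same relative scale, Inhba was -0.21, Inhbb -0.10, Bmpr2 -0.37 and Bmpr1b -0.26.

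Inha in WT was at a mean of 8338 ± 2821 FPKM in MGCs and 1630 ± 454 FPKM in cumulus cells (SD, n = 3), 5.07-fold higher in MGCs (adjusted p 4.15e-06). Fst was at 640.3 ± 104 and 220.9 ± 47.9 FPKM, 2.91-fold higher (adjusted p 1.45e-05). Acvr2a was at 8.05 ± 0.25 and 2.24 ± 0.45 FPKM, 2.81-fold higher (adjusted p 1.68e-06). For all 3 genes the lowest MGC library was above the highest cumulus library.

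Markers of other cell types moved with this comparison. In WT mice theca and stroma markers were higher in MGCs for 7 of 8 genes and endothelial markers for 5 of 5. Leukocyte markers were higher for 7 of 7 and oocyte markers for 6 of 8. The counts in Sphk1/2gc-/- mice were 8 of 8, 4 of 5, 6 of 7 and 7 of 8. Beside these counts, 52.5% of all genes tested were higher in MGCs in WT and 51.3% in Sphk1/2gc-/- mice. Theca and stroma markers summed to 189.7 to 365.3 FPKM in WT MGCs and 17.3 to 61.5 FPKM in WT cumulus cells. Their part in the differences of Inha, Fst, Amh, Amhr2 and Acvr2a was not tested.

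Amh showed the widest gap of the 9, with 87.3 FPKM or more in every MGC library and 2.16 FPKM or less in every cumulus library. The log2 difference was 6.46 ± 0.48 (SE) in WT and 6.54 ± 0.48 in Sphk1/2gc-/- mice. Amhr2 was 3.28-fold higher in WT MGCs (59.97 ± 4.64 against 18.3 ± 6.25 FPKM, adjusted p 0.000314).

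In WT, Inhba was 1.26 times (adjusted p 0.258) and Inhbb 1.36 times (adjusted p 0.437) the cumulus level in MGCs, with overlapping groups, and both were below 0 after median centring (-0.47 and -0.36). In Sphk1/2gc-/- mice, where the cumulus levels were the lower ones, Inhba was 3.31-fold (adjusted p 7.69e-05) and Inhbb 7.63-fold (adjusted p 0.000237) higher in MGCs. Bmpr1b was 1.21 times its cumulus level in WT MGCs (adjusted p 0.209; -0.52 after median centring) and 1.85-fold higher in Sphk1/2gc-/- MGCs (adjusted p 0.00142; 0.07 after median centring, adjusted p 0.8). These comparisons share libraries with the genotype tests and are given as their own values only.

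Base composition moved with the cell type difference. In WT, the median difference rose from -0.24 in the lowest decile of genes by GC content to 1.32 in the highest. Amh (65.4% GC in its longest transcript), Inhbb (60.9%), Inha (59.7%) and Amhr2 (58.8%) lie in the highest decile, whereas Fst (44.3%), Bmpr1b (42.2%), Inhba (41.4%), Bmpr2 (41.0%) and Acvr2a (39.9%) lie in deciles 1 to 3. After each library was centred on its GC deciles, Inha no longer passed in either genotype (WT 0.51, adjusted p 0.132; Sphk1/2gc-/- 0.51, adjusted p 0.135), Amhr2 was at -0.12 in WT (adjusted p 0.716) and 0.09 in Sphk1/2gc-/- mice (adjusted p 0.786), and Inhbb in WT became lower in MGCs (-1.39, adjusted p 0.0194). Amh (4.62), Acvr2a (1.61) and Fst (1.31) remained higher in WT MGCs. Within cumulus cells GC centring left Inhba at -1.19 (adjusted p 0.0163), Inhbb at -1.57 (adjusted p 0.00535) and Bmpr1b at -0.82 (adjusted p 0.0251, or 0.0706 with the replicate block as well).

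**Figure D4:**
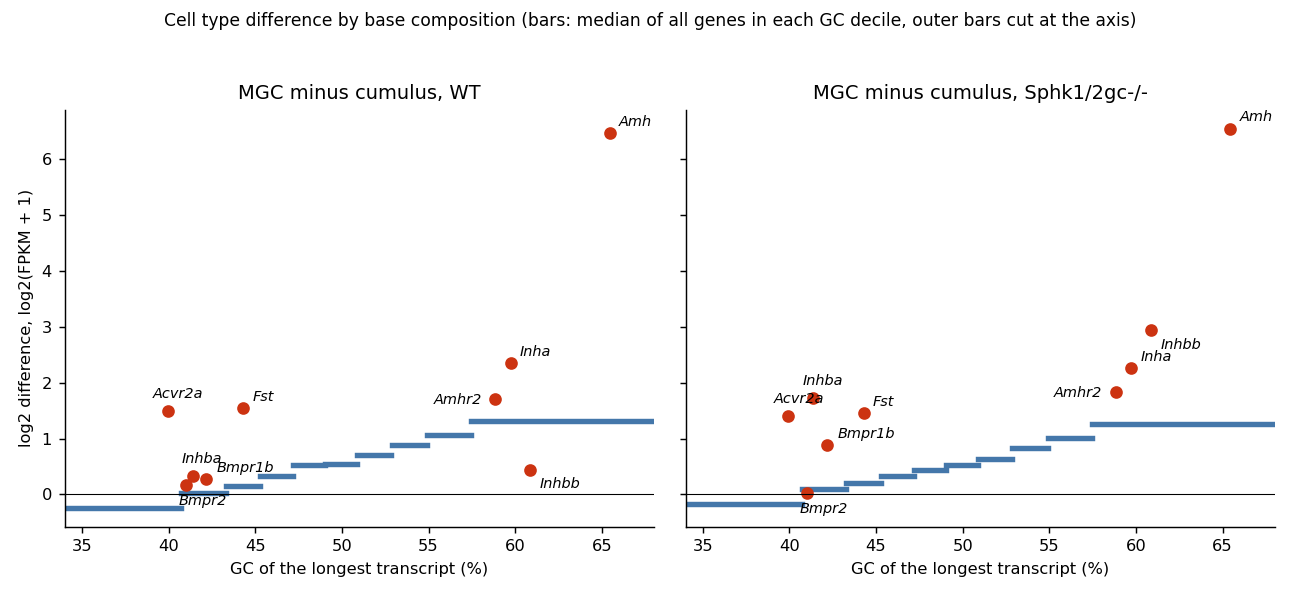
Log2 difference, MGC minus cumulus, against GC content of the longest transcript, in WT and in Sphk1/2gc-/- mice. Bars are the median of all genes in each GC decile, which rose from -0.24 to 1.32 in WT, and points are the 9 members, with Amh at 6.46 in WT.

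Across groups, Inha was higher in both MGC groups than in both cumulus groups, and neighbouring groups within a cell type did not differ beyond their spread. The same order held for Fst, Amhr2, Acvr2a and Amh. For Inhba, the MGC groups and WT cumulus cells lay together in FPKM (means 1595 ± 349, 1630 ± 246 and 1284 ± 358) and Sphk1/2gc-/- cumulus cells lay below them. This depended on scaling. Between WT cell types Inhba was at -0.47 after median centring, and it passed as higher in MGCs in TPM. Bmpr2 had means of 89.8 to 104.2 FPKM in the 4 groups, and did not pass in any of the 4 comparisons of groups, although after median centring it was lower in MGCs (-0.62 in WT, adjusted p 0.0284, and -0.80 in Sphk1/2gc-/- mice, adjusted p 0.00823). Within WT MGCs the order of group means was Inha, Inhba, Fst, Inhbb, Amh, Bmpr2, Amhr2, Bmpr1b and Acvr2a, where the libraries of Inhbb and Amh, of Amh and Bmpr2, and of Amhr2 and Bmpr1b overlapped. In WT cumulus cells Amh was the lowest and Acvr2a the next lowest.

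By Pearson's r of log2(FPKM + 1) over the 12 libraries, among 6719 genes averaging 5 FPKM or more, the genes most like Inha were Chst11 (r = 0.995), P3h1 (0.994) and Slc39a6 (0.992). For Fst they were Soat1 (0.989), Hnrnph2 (0.987) and Lipa (0.987), and for Amh they were Tufm (0.992), Mgat1 (0.992) and Tspan14 (0.991). Inhba was most like Jak1 (0.946), Slc26a7 (0.944) and Slfn4 (0.944), and Inhbb was most like Cdc45 (0.980), Atad2 (0.978) and Nup205 (0.971). The 12 points share cell types, tables and libraries, and Sphk1/2gc-/- MGC library 3 is a far point for Inhbb.

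The rest of the pathway was described from 6 lists holding 81 genes. In cumulus cells 47 were tested, 12 were higher and 2 lower in Sphk1/2gc-/- mice, where 9.66% of all genes tested were higher and 12.7% lower, with a median log2 difference of 0.39 against -0.06 over all genes. In MGCs 67 were tested and none passed (limma), with a median of -0.06 against -0.0034 over all genes. Of these 67, 8 had an unadjusted p of 0.05 or less, as did 1406 of all 15279 genes tested. The higher genes in cumulus cells stood in every list. Without both libraries numbered 2 the count in cumulus cells was 3, Acvr1c (adjusted p 0.0613), Pcsk5 (0.0522) and Pmepa1 (0.0777) being among those lost, and without both numbered 3 it was 7. In MGCs it was 4 without Sphk1/2gc-/- library 3 and 19 without both numbered 3.

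By list, the counts in cumulus cells stand beside the same shares of all genes, 9.66% higher and 12.7% lower. Of the TGF-beta family ligands 2 of 7 tested were higher in cumulus cells (24 listed, median 0.52), and of the receptors and co-receptors 3 of 7 (13 listed, median 0.52). Of the secreted and membrane antagonists 1 of 10 was higher and 2 were lower (16 listed, median 0.21). Of the SMADs and their regulators 2 of 13 were higher (14 listed, median 0.33), and of the SMAD target genes 4 of 9 (12 listed, median 0.57). Of the proteases that process the subunits 1 of 3 was higher (4 listed, median 0.05). Smad6 and Smad7 stand in both SMAD lists. In MGCs the tested members of these lists numbered 12, 12, 15, 14, 12 and 4.

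Between cell types, 57 of 68 pathway genes were higher in WT MGCs and 5 were lower, where 52.5% of all genes were higher and 24.1% lower, with a median log2 difference of 1.16 against 0.54 over all genes. In Sphk1/2gc-/- mice 50 were higher and 7 lower, against 51.3% and 22.0% of all genes, with a median of 0.95 against 0.51. After median centring, which turned the split of all calls, 42 and 44 pathway genes passed in either direction. For the difference of the genotype effect, 3 of 68 genes had a higher effect in cumulus cells and none a lower one. Over all genes the shares were 2.45% higher and 1.48% lower. The median was 0.39 against -0.03 over all genes.

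Id2, an inhibitor of bHLH factors and a target of BMP SMADs, had the smallest adjusted p. It was at 77.7, 70.0 and 102 FPKM in WT cumulus cells, against 418, 641 and 624 FPKM in their Sphk1/2gc-/- counterparts, 6.64-fold higher (log2 difference 2.73 ± 0.22 SE, adjusted p 0.000467). In MGCs Id2 was at 50.2, 54.8 and 26.0 against 40.4, 42.9 and 7.56 FPKM, with overlapping groups.

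Pmepa1, a TGF-beta target that dampens SMAD signalling, was at 1.73, 1.66 and 3.41 FPKM in WT cumulus cells, against 5.92, 9.40 and 11.4 FPKM in their Sphk1/2gc-/- counterparts (log2 difference 1.60, adjusted p 0.00616). Acvr1c, the type I receptor ALK7, was at 0.508, 0.593 and 0.772 against 1.99, 2.58 and 3.62 FPKM (log2 difference 1.18, adjusted p 0.00485). Bmp8a, a BMP ligand, was at 0.103, 0.301 and 0.308 against 1.77, 2.29 and 2.51 FPKM (log2 difference 1.36, adjusted p 0.0015), and its near-identical copy Bmp8b makes its reads uncertain. All Sphk1/2gc-/- cumulus libraries were above all WT cumulus libraries for these 3 genes. In MGCs Pmepa1 was at 12.6, 11.8 and 10.4 FPKM in WT against 16.4, 15.5 and 10.9 FPKM in Sphk1/2gc-/- mice. Acvr1c was at 0.724, 0.879 and 0.504 against 3.50, 3.59 and 0.262 FPKM there. Bmp8a was at 2.12, 1.88 and 0.814 against 1.82, 1.18 and 0.322 FPKM. The MGC groups overlapped for each gene and none passed.

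Pcsk5, a proprotein convertase of the family that cleaves these ligands, was at 8.33, 8.50 and 10.1 FPKM in WT cumulus cells, against 23.7, 18.8 and 19.8 FPKM in their Sphk1/2gc-/- counterparts (log2 difference 1.13, adjusted p 0.00312). In MGCs it was at 32.7, 28.5 and 29.9 against 55.0, 54.8 and 25.2 FPKM, with overlapping groups, and did not pass. Sphk1/2gc-/- MGC library 3 was the lowest of its group for Pcsk5, Pmepa1, Acvr1c and Bmp8a.

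**Figure D5:**
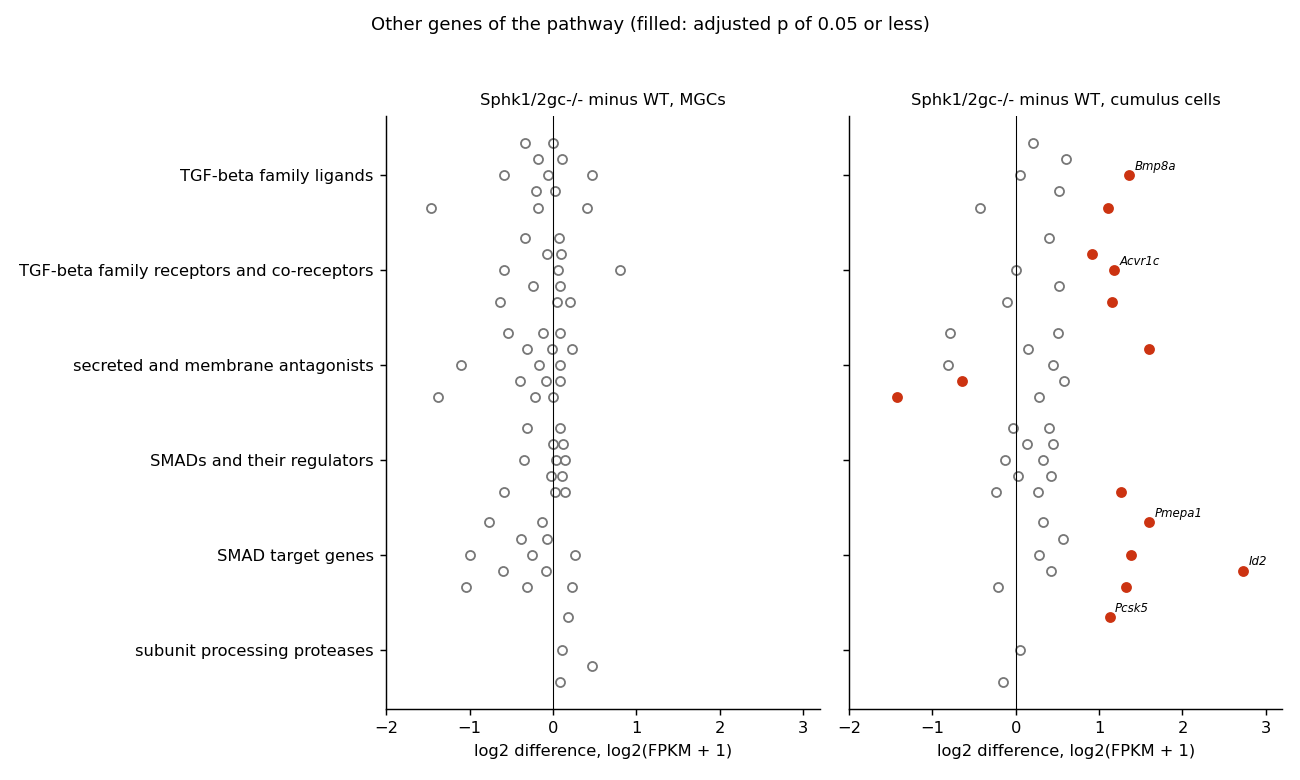
Log2 difference, Sphk1/2gc-/- minus WT, of the other pathway genes by list, in MGCs and in cumulus cells. Each point is a gene, filled where the adjusted p is 0.05 or less, and the 5 genes described in the text are named. In cumulus cells 12 genes were higher and 2 lower, and in MGCs none passed.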

How the data were processed

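RNA-seq of 12 libraries (3 per group) was analysed from the FPKM values deposited by the authors in 2 tables, one for each cell type. Per the labels, libraries were made with the NEBNext Ultra kit, and the submitters' processing notes name HISAT2 and GRCm38. The counter and the annotation are not given in the sources used here. Ensembl ids were named with GENCODE M21, whose exon lengths fitted or failed alike in both tables for 99.3% of 23235 genes. Within these lengths 90.5% to 92.0% of FPKM values above 0 were whole reads (within 0.02 reads), so read totals and low counts are approximate. The exon length of Amhr2 fitted few of its values. Differences were tested with limma 3.58.1 (R 4.3.3, trended prior) on log2(FPKM + 1), which understates the change of low genes. Genes averaging 0.5 FPKM or more in some group were kept, and p-values were adjusted by Benjamini-Hochberg over all genes tested. Each cell type was fitted alone, and both comparisons between cell types and the difference of effects came from one model of 4 group means. Members and lists were chosen with earlier results of these data known. All 9 members are described, as are, of the 6 pathway genes with the smallest adjusted p among those that passed in a cell type, all but 1, which is not reported here, and the 3 genes most like each of Inha, Inhba, Inhbb, Fst and Amh. Deviations of same-numbered MGC libraries from their group means correlated at 0.22, 0.158 and 0.224, which meets the rule for a pairing, although no label states one. In cumulus cells the correlations were -0.148, -0.0511 and 0.115, so the numbers do not pair those libraries. The scripts were tested on simulated data with known changes. Alternatives covered the pseudocount, filter, scaling, weights, replicate block, left-out libraries and, chosen after seeing the data, GC centring and removal of both MGC libraries numbered 3.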

Additional observations from a re-analysis of the deposited data

Results flagged for a closer look

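The effect of genotype on Id2 was 3.50 higher in cumulus cells than in MGCs on the log2 scale (limma interaction, adjusted p 0.0294), a difference tested directly. Bmp8a had an effect 1.70 higher in cumulus cells (adjusted p 0.0337), at levels of at most 2.51 FPKM. No member passed this test. Groups of 3 libraries are too small for a test of single outlying libraries.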

How the results depend on the processing

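Of 808 alternatives for the members' tests, 712 kept direction and side of the threshold, 14 lost a call, 23 gained one and 59 changed sign, the last mostly for differences near 0. The cause was not tested for any of these changes. For all genes in MGCs, 1 gene passed with no filter, with a mean of 5 FPKM or more, after median centring or after GC centring, 7464 passed with array weights (4 members), 3 with the replicate block and 2 with GC centring and the block. In cumulus cells the counts were 1240 with no filter (1 member), 1807 at 5 FPKM, 4797 with array weights and 981 at a fold of 2. Bmpr2 was at 0.024 in TPM, 0.078 with array weights and 0.13 with GC centring, with or without the block, and Amh was at -0.46 with array weights.

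Between WT cell types 7059 genes passed at 5 FPKM and 7733 at a fold of 2, and 8 members passed in TPM. Median centring gave Inhba -0.47, Inhbb -0.36, Bmpr2 -0.62 and Bmpr1b -0.52, and GC centring gave Inhbb -1.39 and Amhr2 -0.12. In Sphk1/2gc-/- mice 6807 and 7160 genes passed at those limits, and Bmpr2 was at -0.80 after median centring and -0.14 after GC centring. For the difference of effects, 327 genes passed with no filter, 3185 with array weights (2 members) and 2474 without both MGC libraries numbered 3 (2 members). There 1 member passed at 5 FPKM, with the replicate block or with GC centring. Amh was at 0.40 with a pseudocount of 0.1 and 0.11 in TPM. Inha was at -0.12 with array weights, -3.09e-05 with GC centring and -0.14 without both libraries. Fst was at -0.17 and -0.15 with array weights and without both, where Amhr2 was at 0.091 and Bmpr2 at -0.056.

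Leaving out libraries gave 0 to 2486 genes in MGCs (0 to 2 members), 485 to 3930 in cumulus cells (0 to 4 members) and 108 to 1189 for the difference of effects (0 to 2 members). In cumulus cells, leaving out WT library 1 or 2 gave 1341 or 1413 genes, and leaving out Sphk1/2gc-/- library 2 or 3 gave 1591 or 1319. In MGCs Inhba ranged from -0.11 to 0.28, Amhr2 from -0.46 to 0.083, Fst from -0.36 to 0.0033 and Bmpr2 from -0.31 to 0.026. In cumulus cells Amh ranged from -0.44 to 0.96, Bmpr2 from -0.16 to 0.18, Fst from -0.36 to 0.062 and Amhr2 from -0.83 to 0.11, with a call at the former. Bmpr2 ranged from -0.059 to 0.14 between Sphk1/2gc-/- cell types. For the difference of effects, Amh ranged from -0.53 to 0.38, Inha from -0.18 to 0.29, Fst from -0.037 to 0.26, Amhr2 from -0.41 to 0.15 and Acvr2a from -0.000222 to 0.19. The replicate block on its own changed no member's call other than that of Inhba in the difference of effects, and joined to GC centring it ended that of Bmpr1b in cumulus cells (-0.82, adjusted p 0.0706). Array weights stopped before convergence. GC centring and the removal of both MGC libraries from the joint model were chosen after seeing the data.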
